A study of Homo sapiens with 16 samples.

Results

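Collagen genes were followed in HMC3 cells, an immortalised human microglial line, wild type or labelled as a knockout of METTL3, the catalytic subunit of the enzyme that places N6-methyladenosine (m6A) in mRNA. The 10 genes were taken by symbol: COL1A1, COL1A2, COL3A1, COL4A1, COL4A2, COL5A1, COL5A2, COL6A1, COL6A2 and COL6A3, out of 60669 genes in each deposited table. The list was chosen by collagen type after the TPM and the log2 changes between the genotypes in both library types had been seen, the low values of COL1A1 under the knockout label among them. Differences of these 10 genes between genotypes are therefore described with their spread and without a test.

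The series holds 16 libraries. Of these, 5 wild-type and 5 METTL3 KO libraries were made with Smart-seq2, which amplifies polyadenylated RNA, and 3 and 3 were made with a directional kit from total RNA after removal of ribosomal RNA. All 16 carry the same cell line with no treatment named, and the labels do not say whether the knockout is 1 clone or a pool of cells, nor whether libraries came from separate cultures, so the spread between libraries may be technical. For the poly(A) libraries the data are the authors' deposited comparison. For those depleted of rRNA they are TPM, a share of the library corrected for the length of the gene.

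Collagens are built from 3 alpha chains wound into a triple helix, in which glycine opens each triplet of residues. Type I (COL1A1 and COL1A2) and type III (COL3A1) form the thick fibrils of connective tissue, type V (COL5A1 and COL5A2) is built into type I fibrils and limits their diameter, type IV (COL4A1 and COL4A2) forms the sheet of basement membranes, and type VI (COL6A1, COL6A2 and COL6A3) forms beaded filaments around cells. In brain, collagen transcripts are known mainly from vascular, mural and fibroblast cells and not from microglia.

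The repeat that defines the family is shown first, because base composition moved with the values given further on. The longest coding transcript of each gene in GENCODE 29 was used. The first 27 codons of the longest unbroken run of triplets that open with glycine follow, 5′ to 3′. Capitals mark the glycine codon that opens each triplet.
COL1A1, coding positions 535 to 615: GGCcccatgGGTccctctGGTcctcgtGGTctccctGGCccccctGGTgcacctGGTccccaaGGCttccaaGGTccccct
COL1A2, coding positions 271 to 351: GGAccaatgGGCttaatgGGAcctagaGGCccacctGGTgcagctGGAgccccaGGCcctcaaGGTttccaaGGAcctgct
COL5A2, coding positions 637 to 717: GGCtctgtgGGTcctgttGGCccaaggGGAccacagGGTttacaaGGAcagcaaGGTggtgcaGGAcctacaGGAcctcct

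The same repeat was written with different bases. These stretches had a GC content of 70.4% in COL1A1, 61.7% in COL1A2 and 60.5% in COL5A2. In the type I, III and V genes the run went on for 1014 to 1029 codons without a break, and in COL4A1 and COL4A2 the longest unbroken stretch was 120 and 198 codons. In the type VI genes it was 135 to 261 codons, with globular parts on either side. Glycine codons made up 23.3% to 28.6% of the coding sequence of the type I, III, IV and V genes and 9.54% to 15.2% of the type VI genes, against a median of 6.38% over 11784 protein-coding genes tested. The GC content of the whole transcript ran from 47.9% in COL5A2 to 66.4% in COL6A2, with a median of 48.7% over those protein-coding genes.

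COL4A1 and COL4A2 lie head to head on chromosome 13 and are read outwards from a shared stretch. The 126 bases between their RefSeq starts, chr13:110307158-110307283 on the plus strand of GRCh38.p14, are shown because both genes start from it. The capitals mark a CCAAT sequence and a GGGCGG sequence.
COL4A1 and COL4A2, bases between the starts: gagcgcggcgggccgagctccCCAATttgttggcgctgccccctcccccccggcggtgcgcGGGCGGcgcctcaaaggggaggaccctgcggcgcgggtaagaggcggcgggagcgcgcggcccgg
Both strands were searched for 4 motifs. CCAAT was found 1 time, and 21.9% of 27305 promoter windows of 126 bases hold it. GGGCGG was found 1 time, and 34.6% of the windows hold it. TATAAA (6.23% of windows) and the core of the interferon-stimulated response element (1.52% of windows) were not among these letters. The GC content of this stretch was 80.2%.

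The other genes are spread over the genome. In GENCODE 29 on GRCh38, COL1A1 lies on chromosome 17 (50183289 to 50201632, minus strand), COL1A2 on chromosome 7 (94394561 to 94431232, plus strand) and COL5A1 on chromosome 9 (134641774 to 134844843, plus strand). COL3A1 (188974320 to 189012746, plus strand) and COL5A2 (189031896 to 189225312, minus strand) are neighbours on chromosome 2 with 19149 bases between them, and COL6A3 lies on the same chromosome (237324003 to 237414375, minus strand). COL6A1 (45981737 to 46005050) and COL6A2 (46098097 to 46132849) stand in a row on the plus strand of chromosome 21. COL4A1 (110148963 to 110307233, minus strand) and COL4A2 (110305812 to 110513209, plus strand) overlap by 1422 bases in this annotation. Whether reads were counted by strand is not given in the sources used here, so reads from that overlap cannot be assigned to one of them with certainty.

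Before the genes, the libraries. METTL3 itself had 25.4 to 31.6 TPM in wild-type and 39.2 to 42.7 TPM in METTL3 KO libraries, so mRNA does not check the knockout label, and every direction below is for libraries carrying that label. Gene lengths gave the number of reads behind each TPM value: 266157 to 487272 reads per wild-type library and 512627 to 1267171 per METTL3 KO library. No difference beyond sampling noise was detected between METTL3 KO libraries 1 and 2 (chi-square of 1.02 per degree of freedom over 10120 genes, p = 0.065), and they were averaged and counted as 1 sample, which left 3 wild-type and 2 METTL3 KO samples. The labelled cell type was checked against 12 microglial markers: 9 were listed at 0 in all 6 libraries, among them AIF1, CX3CR1, TMEM119, P2RY12, ITGAM and PTPRC, and their sum was 0 to 6.47 TPM in the wild type and 0.532 to 5.24 TPM under the knockout label. A list of 12 fibroblast and mural cell markers summed to 1939 to 2176 TPM in the wild type and 5766 to 5957 TPM under the knockout label. Of these 12, 7 reached 1 TPM in every library, and FN1 (fibronectin) and VIM (vimentin) had the largest values. LUM was listed at 0 in all 6 libraries, and DCN, PDGFRA, RGS5 and ACTA2 had at most 6.4 TPM. Endothelial markers summed to 0 to 1.59 and 0 to 1.32 TPM, neuronal markers to 0 to 3.63 and 10.6 to 14.3 TPM, and astrocyte markers to 1.31 to 5.62 and 3.86 to 4.03 TPM, wild type first. In bulk RNA, fewer cells of a kind and less RNA per cell cannot be told apart.

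In the rRNA-depleted libraries 8 of the 10 collagen genes were present, and each of the 8 was lower in every METTL3 KO library than in any wild-type library. The difference ran from 13.02-fold for COL1A1 to 1.63-fold for COL6A2. COL3A1 and COL6A3 held 3 reads or fewer in every library. Together the 10 genes made up 1.14% to 1.39% of all transcripts in the wild-type libraries and 0.13% to 0.144% under the knockout label. Of all 14789 genes tested, 12.4% were called lower and 22.9% higher at a limma adjusted p under 0.05, while the libraries of the groups did not overlap for 58.4%, with the knockout label lower for 19.9% and higher for 38.4%. These shares are background only, since the 10 genes were chosen with this contrast already seen.

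Type I collagen was the most abundant. COL1A1, the alpha 1 chain of type I, measured 10400, 9612 and 11995 TPM in the 3 libraries of the wild type, and 749, 799 and 865 TPM in METTL3 KO libraries 1 to 3. The wild-type values lay far above the others, and the lowest of them rested on 9120 reads. From 10669 ± 1214 (SD, n = 3) the mean went to 819 ± 64.5 (SD, n = 2) TPM under the knockout label, a log2 change of -3.70 (SE 0.15) on the log2(TPM + 1) scale. COL1A1 stood at rank 7 of all genes by TPM in the wild type and at rank 102 under the knockout label.

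COL1A2, the partner chain, measured 545, 511 and 621 TPM in the wild type, and 125, 126 and 118 TPM in the METTL3 KO libraries. The groups did not overlap, and the mean went from 559 ± 56.2 (SD, n = 3) to 122 ± 5.3 (SD, n = 2) TPM, a log2 change of -2.18 (SE 0.12). COL3A1, the single chain of type III, was listed at 2.08 TPM, which is 2 reads, in wild-type library 1 and at 0 in the other 5 libraries. The limit of 3 reads that a 0 permits is, for COL3A1, 2.64 to 4.56 TPM in a wild-type library and 1.21 to 2.84 TPM in a METTL3 KO library, so no difference was detectable at this depth.

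In TPM the type V chains differed less than the type I chains. With the trend with GC content removed, described below, COL5A2 (-1.76) and COL1A2 (-1.69) were alike. COL5A1 had 121, 138 and 125 TPM in the wild-type and 33.6, 31.8 and 34.1 TPM in the METTL3 KO libraries, a log2 change of -1.91 (SE 0.13). COL5A2 had 305, 311 and 305 TPM in the wild-type and 97.9, 92.6 and 102 TPM in the METTL3 KO libraries, a log2 change of -1.63 (SE 0.09). Each group was tight for both genes, with SDs of 8.78 and 3.6 TPM over 3 wild-type samples and 0.966 and 4.75 TPM over 2 METTL3 KO samples.

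The 2 chains of type IV, the basement membrane collagen, differed by unlike amounts. COL4A1 had 256, 238 and 239 TPM in the wild-type and 30.7, 28.1 and 31.5 TPM in the METTL3 KO libraries, a log2 change of -2.96 (SE 0.11), second to COL1A1 in size. COL4A2 had 244, 196 and 230 TPM in the wild-type and 58.9, 55.7 and 74.9 TPM in the METTL3 KO libraries, a log2 change of -1.75 (SE 0.17). Both start from the stretch of chromosome 13 shown above.

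Type VI differed least. COL6A1 had 249, 242 and 243 TPM in the wild-type and 107, 92.3 and 111 TPM in the METTL3 KO libraries, a log2 change of -1.21 (SE 0.10). COL6A2 had 154, 148 and 172 TPM in the wild-type and 98.3, 75.3 and 107 TPM in the METTL3 KO libraries, a log2 change of -0.71 (SE 0.14), with a difference between the group means of a few SDs (12.7 TPM over 3 samples and 14.1 TPM over 2). Without METTL3 KO library 3, which left 1 sample with that label, the log2 change of COL6A2 was -0.85. With the trend with GC content removed, described below, that change turned to 0.26. COL6A3, the longest chain of the type, was listed at 0.61 TPM in wild-type library 3, at 0.512 TPM in METTL3 KO library 1 and at 0 in the other 4.

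**Figure D1:**
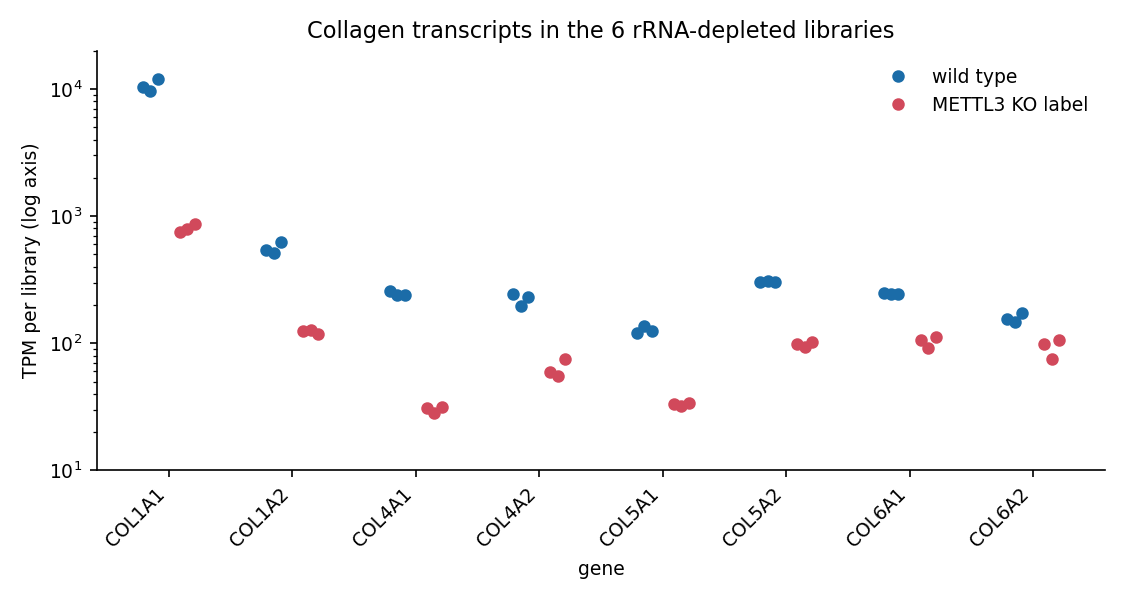
TPM of the 8 detected collagen genes (log axis) in each of the 3 wild-type and 3 METTL3 KO rRNA-depleted libraries, 1 point per library. Every METTL3 KO point lies below every wild-type point of the same gene, and the gap is widest for COL1A1 (9612 to 11995 TPM against 749 to 865 TPM) and narrowest for COL6A2 (148 to 172 TPM against 75.3 to 107 TPM).

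TPM is a share of a library, and over all 14789 genes the median log2 change was 0.41 and not 0. Relative to that median the log2 changes were -4.11 for COL1A1, -2.60 for COL1A2, -3.37 for COL4A1, -2.16 for COL4A2, -2.32 for COL5A1, -2.04 for COL5A2, -1.62 for COL6A1 and -1.12 for COL6A2. Ordered from the lowest log2 change among 3246 genes with a mean of at least 50 TPM, COL1A1 took rank 131, COL4A1 rank 179 and COL6A2 rank 871.

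The order of the genes changed with the genotype label. In the wild type COL1A1 and COL1A2 were followed by COL5A2, then by COL6A1, COL4A1 and COL4A2, whose libraries overlapped from one to the next, and then by COL6A2 and COL5A1. Under the knockout label COL1A1 and COL1A2 were followed by COL6A1, COL5A2 and COL6A2, which overlapped from one to the next, then by COL4A2 and COL5A1. COL4A1 came last of the 8, at 28.1 to 31.5 TPM, below COL5A1 in each of the 3 libraries. COL1A1 alone supplied 84.3% to 86.1% of the TPM of the 10 genes in the wild type and 57.6% to 61.4% under the knockout label.

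Partner chains were then compared within each library, where scaling between libraries cancels. Type I is mostly made of 2 alpha 1 chains and 1 alpha 2 chain. The ratio of COL1A1 to COL1A2 in TPM was 19.1, 18.8 and 19.3 in the wild type and 5.99, 6.33 and 7.32 in METTL3 KO libraries 1 to 3. COL4A1 to COL4A2 went from 1.05, 1.21 and 1.04 to 0.521, 0.505 and 0.421, so that the less abundant chain changed from COL4A2 to COL4A1. COL6A1 to COL6A2 went from 1.62, 1.64 and 1.41 to 1.08, 1.23 and 1.04. COL5A1 to COL5A2 moved least, from 0.397, 0.443 and 0.411 to 0.343, 0.344 and 0.334. None of the 4 ratios overlapped between the groups. How often ratios of other gene pairs overlap was not counted, and of single genes tested 58.4% did not overlap. In each of the 4 ratios the first chain was reduced by more than its partner in TPM. For type V that order turned once the trend with GC content, described below, was removed. The log2 change was then -1.34 for COL5A1 and -1.76 for COL5A2.

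**Figure D2:**
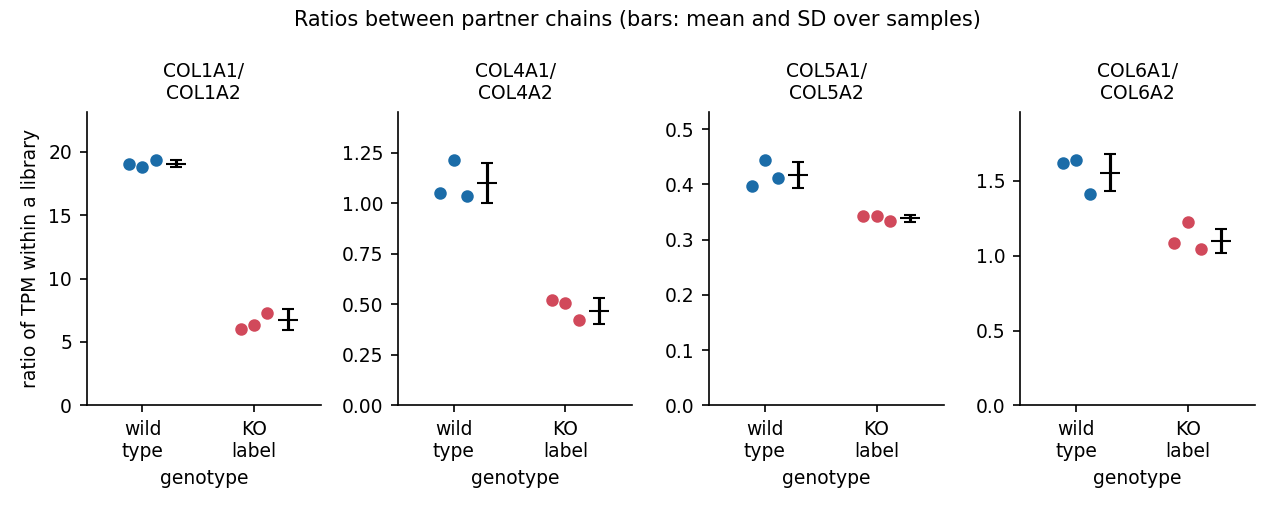
Ratio of TPM between partner chains within each rRNA-depleted library, with 1 point per library and the mean and SD over 3 wild-type and 2 METTL3 KO samples beside them (METTL3 KO libraries 1 and 2 averaged), each panel on its own axis from 0. The COL1A1 to COL1A2 ratio was 19.1 ± 0.257 (SD, n = 3) in the wild type and 6.74 ± 0.824 (SD, n = 2) under the knockout label.

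The length used for a gene sets the size of such a ratio but not its change. The union of annotated exons, which fits the deposited TPM, is 2.97 times the longest coding transcript for COL4A2, 2.23 times for COL4A1, 2.06 times for COL1A2, 1.46 times for COL1A1 and 1.05 times for COL5A2. With recovered reads per base of the longest coding transcript (an alternative added once the values had been seen), the mean ratio of COL1A1 to COL1A2 was 13.5 in the wild type and 4.77 under the knockout label. For COL4A1 to COL4A2 it was then 0.824 and 0.35, so which type IV chain was the more abundant in the wild type rests on the length. The read numbers of COL4A1, COL4A2 and COL5A2 are approximate, since their TPM did not give whole reads with GENCODE 29 lengths.

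GC content moved with the changes in these libraries. Across 14669 genes with a known transcript, log2 changes fell with GC content (Spearman rho -0.37, a description over genes, which share libraries and are not replicates). For genes within 2 percentage points of the GC content of COL1A1 (61.1%) the median log2 change was -0.12, against -3.70 for COL1A1. For the like genes of COL5A2 (47.9%) the median was 0.64, against -1.63. For the like genes of COL6A2 (66.4%) it was -0.56, close to the -0.71 of COL6A2.

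After the trend with GC content had been taken out of every library, the log2 change was -3.08 for COL1A1, -1.69 for COL1A2, -2.46 for COL4A1, -1.08 for COL4A2, -1.34 for COL5A1 and -1.76 for COL5A2. For type VI it was -0.44 for COL6A1 and 0.26 for COL6A2, so the direction of COL6A2 turned. Fibroblast and mural markers differed between the groups in both directions. Vimentin (VIM) went from 446 to 521 TPM to 2157 to 2306 TPM and fibronectin (FN1) from 803 to 871 TPM to 2168 to 2237 TPM, and THY1 and S100A6 were likewise higher in every METTL3 KO library. PDGFRB, a receptor of mural cells and fibroblasts, went from 79.7 to 103 TPM to 37.1 to 48 TPM, CSPG4 was also lower, and TAGLN overlapped (307 to 388 against 373 to 404 TPM). The summed level of the list, given above and led by FN1 and VIM, was higher under the knockout label, the opposite of the collagen genes. The part of these markers in the collagen values was not tested.

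**Figure D3:**
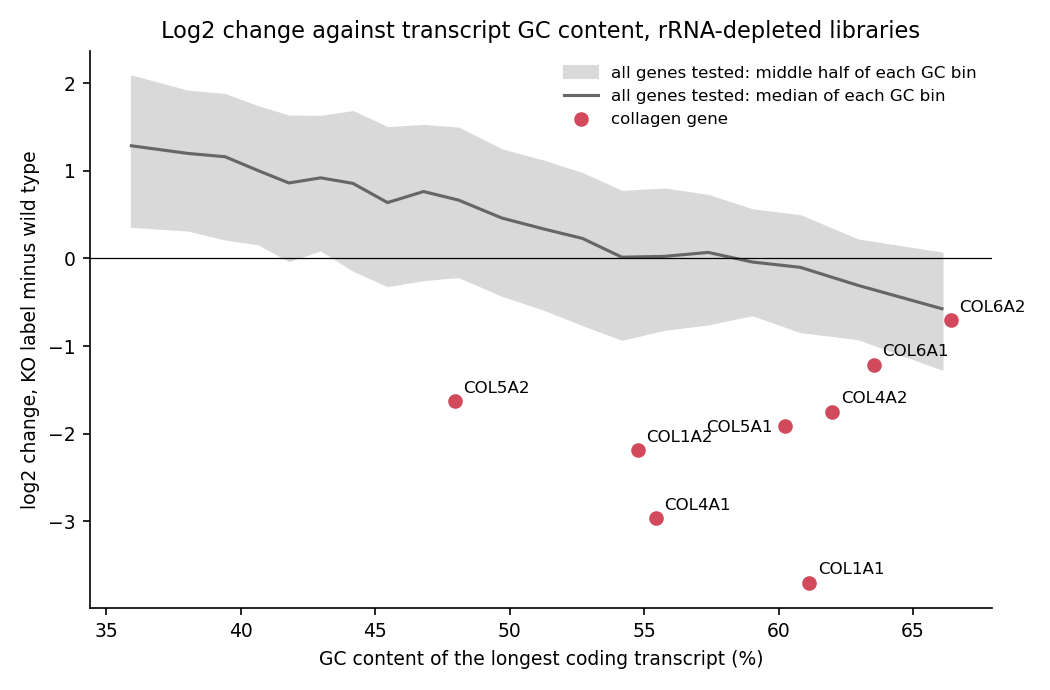
Log2 change (knockout label minus wild type, log2(TPM + 1) scale) against GC content of the longest coding transcript, with the median and interquartile range of all genes tested in 20 bins and the 8 collagen genes as points. COL6A2 lies close to the line of the median and the other 7 lie below the grey band, COL1A1 farthest at -3.70.

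The sequence in which METTL3 most often places m6A, GGACT in the DNA, was counted in the longest coding transcript on the sense strand. COL4A1 and COL4A2 held 2.42 and 2.46 per kilobase, above 96.1% and 96.5% of protein-coding genes tested, whose median was 0.927. COL1A1 held 0.743 (above 37.7%) and COL6A2 0.578 (above 25.7%), and the other 6 genes 0.837 to 1.42. The 2 genes with the largest falls, COL1A1 and COL4A1, thus stood on opposite sides of the median. A match of these letters does not show that a site is methylated.

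In polyadenylated RNA the picture was different. Of the 10 genes 8 had an adjusted p in the authors' deposited table, with 3 called lower, 3 higher and 2 neither, where 10.3% of its 14009 genes were called lower and 9.55% higher. A positive value was taken as higher under the knockout label, since the sign was then shared in 91.5% of 177 genes that passed and reached 1 in absolute log2 change in each library type, and none of these 177 is on the list of 10. The table does not name its numerator, and with the other reading each direction from it would turn.

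COL1A1 was lower by the authors' deposited table, at a log2 fold change of -0.79 (SE 0.09) and a mean of 1092 normalized counts. COL4A1 followed with -0.62 (SE 0.16) and COL5A2 with -0.36 (SE 0.11) in the authors' deposited table. These 3 were lower in both library types. COL1A2 was 0.30 (SE 0.08) in the authors' deposited table, with a mean of 328 normalized counts, and so was called higher there while being 4.59-fold lower in the rRNA-depleted libraries.

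The 2 detected type VI genes were also higher in the authors' deposited table and lower in the rRNA-depleted libraries, except that COL6A2 was at 0.26 in the latter with the GC trend removed. COL6A1 had 0.92 (SE 0.18) and COL6A2 had 1.32 (SE 0.21) as log2 fold changes in the authors' deposited table, at means of 47.3 and 52.7 normalized counts. COL4A2 (-0.20, SE 0.14) and COL5A1 (-0.04, SE 0.29) were not called in the authors' deposited table. COL3A1 was listed at 0 and COL6A3 had a mean of 0.182 normalized counts in the authors' deposited table.

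The 2 types of library differ in their preparation, and the difference between their log2 changes was not tested. The order of the 8 genes was nonetheless alike: Spearman's rho between the 2 sets of log2 changes was 0.76, and 0.90 with the GC trend removed, as a description over 8 genes. Both sets had been seen when the list was chosen, and no rho over all genes was taken for comparison. With the other reading of the numerator the sign of rho would turn. COL1A1 and COL4A1 were lowest and COL6A1 and COL6A2 highest in both. Per kilobase of annotated exon, the mean normalized count of COL1A1 in the authors' deposited table was 3.79 times that of COL1A2, over both genotypes together.

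**Figure D4:**
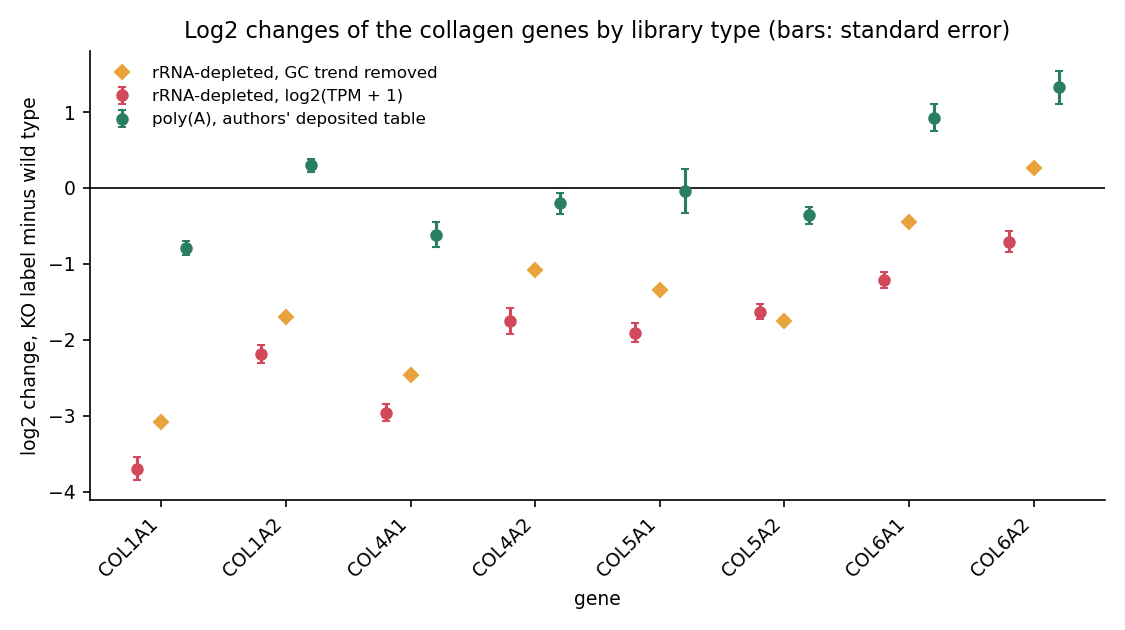
Log2 change of the 8 collagen genes (knockout label minus wild type) in the rRNA-depleted libraries (circles with standard error), the same with the GC trend removed (diamonds) and in the authors' deposited poly(A) table (circles with standard error). The rRNA-depleted values without correction are all below 0, from -3.70 to -0.71, while the poly(A) values run from -0.79 to 1.32.

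The rest of the collagen family was examined next, with the genes that make, export and sense collagen, listed by textbook role. The lists follow textbook roles but were drawn up with earlier results of these data known. Limma tests over all 14789 genes are given for them, and 35.3% of all genes were called in either direction. Of 34 other collagen genes, 9 were listed at 0 in all libraries and 15 were tested. Of the 15, 8 fell, 1 rose and 6 did not pass, with a median log2 change of -1.39, or -1.08 with 4 genes at the limit that 3 reads allow, beside 0.41 for all genes. Without METTL3 KO library 3 the count was 6 and not 9, and the same number passed with the GC trend removed.

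COL7A1, which forms the fibrils that anchor skin to its basement membrane, fell from 205 ± 23.7 (SD, n = 3) to 24.5 ± 5.82 (SD, n = 2) TPM, a log2 change of -3.02 (limma adjusted p = 0.00124). COL18A1, a basement membrane collagen and the source of endostatin, fell from 192 ± 8.67 to 28.8 ± 3.19 TPM (log2 change -2.70, limma adjusted p = 0.000872). COL11A1, a fibril-forming relative of the type V chains, fell from 111 ± 9.90 to 36.0 ± 0.997 TPM (log2 change -1.59, limma adjusted p = 0.00207). COL8A1, a short-chain network collagen, fell from 159 ± 19.4 to 86.6 ± 5.05 TPM (log2 change -0.86, limma adjusted p = 0.00948), and did not pass without METTL3 KO library 3 (limma adjusted p = 0.0932).

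A further 4 collagens fell and 1 rose. COL4A5, a type IV chain encoded on the X chromosome, fell from 77.4 ± 3.9 to 20.2 ± 0.648 TPM, a log2 change of -1.88 (limma adjusted p = 0.00169). COL8A2, COL9A3 and COL11A2 fell from 5.04 to 20.7 TPM on average to under 1 TPM, with at most 2 reads in a METTL3 KO library. COL14A1 was listed at 0 in the wild-type libraries and held 3 to 6 reads in the METTL3 KO libraries, so close to the limit of 3 reads that no fold is given. COL12A1, associated with type I fibrils, did not pass, at 19.7 and 22.7 TPM (log2 change 0.17, SE 0.27). These 6 genes were chosen after their values were seen.

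An adjusted p was given to 16 of these collagen genes in the authors' deposited table, with 2 lower, 1 higher and 13 not called. COL8A1 had -0.82 (SE 0.09) and COL4A5 -0.54 (SE 0.17) as log2 fold changes in the authors' deposited table, both lower as in the rRNA-depleted libraries. COL25A1 had 3.77 (SE 1.02) in the authors' deposited table, at a mean of 3.97 normalized counts. COL7A1 (-0.27, SE 0.34), COL18A1 (0.05, SE 0.70) and COL11A1 (0.27, SE 0.14) were not called in the authors' deposited table. Their means were 15.1, 3.32 and 69.2 normalized counts, so a change of COL18A1 could be missed there.

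Of 19 genes that hydroxylate, glycosylate and fold the chains 17 were tested: 4 rose, 3 fell and 10 did not pass, with a median log2 change of 0.27. Over all genes tested 35.3% were called. With the GC trend removed 7 genes of this list rose and 0 fell, so the split between directions rests on that trend. PPIB, the cyclophilin B that helps procollagen fold, rose from 240.2 ± 8.02 (SD, n = 3) to 548 ± 18.2 (SD, n = 2) TPM, a log2 change of 1.19 (limma adjusted p = 0.00167). PLOD2, a lysyl hydroxylase, rose from 72.2 ± 9.55 to 151 ± 19.3 TPM (log2 change 1.06, limma adjusted p = 0.00798), and with the GC trend removed its log2 change was 0.31 (limma adjusted p = 0.167). PLOD2 also did not pass without METTL3 KO library 3 (limma adjusted p = 0.0589). CRTAP, a partner of the prolyl 3-hydroxylase, rose from 52.6 ± 4.93 to 78.8 ± 0.874 TPM (log2 change 0.58, limma adjusted p = 0.0297, or 0.238 with median ratio scaling). CRTAP also did not pass without METTL3 KO library 3 (limma adjusted p = 0.118) or wild-type library 1 (0.0734) or 2 (0.0582).

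P3H3, a relative of prolyl 3-hydroxylase, fell from 101 ± 11 to 58.1 ± 11.1 TPM (log2 change -0.79, limma adjusted p = 0.0228), but turned to 0.0895 with the GC trend removed (limma adjusted p = 0.697). P3H3 did not pass without METTL3 KO library 3 (limma adjusted p = 0.0626) or wild-type library 3 (0.0561). SERPINH1, the collagen chaperone HSP47, had 175 and 211 TPM (log2 change 0.27, SE 0.09, limma adjusted p = 0.0713), and P4HB, the shared subunit of prolyl 4-hydroxylase, 606 and 732 TPM (log2 change 0.27, SE 0.09, limma adjusted p = 0.0623). With the GC trend removed the log2 change was 0.79 for SERPINH1 and 0.78 for P4HB. Both were chosen after their values were seen. Without METTL3 KO library 3 only 2 of the 17 passed, and 4 did without wild-type library 1 or without wild-type library 3. Of 18 with an adjusted p in the authors' deposited table, CRTAP, FKBP14 and PPIB were higher and P4HA1 lower (-0.31).

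Among 19 genes for export, trimming and crosslinking of procollagen, 17 were tested, 5 rose, 1 fell and 11 did not pass. The share called is close to the 35.3% over all genes tested. The median log2 change of the list was 0.34, or -0.19 with 2 genes at the limit that 3 reads allow and 1 left out. LOX, the lysyl oxidase that crosslinks collagen and elastin, rose from 21.7 ± 2.60 (SD, n = 3) to 152 ± 16.5 (SD, n = 2) TPM, a log2 change of 2.76 (limma adjusted p = 0.00124). In single libraries LOX had 22, 18.9 and 24.1 TPM in the wild type and 157, 171 and 141 TPM under the knockout label. By the authors' deposited table LOX was higher too, at 1.07 (SE 0.09), a direction opposite to that of COL1A1 in each library type.

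SEC23A, a coat protein of the vesicles that leave the endoplasmic reticulum, rose from 21.3 ± 4.89 to 92.4 ± 14.3 TPM (log2 change 2.08, limma adjusted p = 0.00397). KLHL12, a ubiquitin ligase adaptor that enlarges those vesicles for procollagen, rose from 13.0 ± 1.22 to 38.5 ± 4.66 TPM (log2 change 1.49, limma adjusted p = 0.00818). The wild-type values of KLHL12 rested on 4 to 8 reads per library. Neither was called in the authors' deposited table (SEC23A 0.06, KLHL12 -0.30). Of 17 genes of this list with an adjusted p there, 2 were higher, 2 lower and 13 not called. LOXL2, a LOX relative, fell from 363 ± 15.2 to 259 ± 5.55 TPM (log2 change -0.49, limma adjusted p = 0.0139), turned to 0.0222 with the GC trend removed, and was -0.32 (SE 0.09) in the authors' deposited table. LOX alone of this list passed without METTL3 KO library 3, and the limma adjusted p was 0.0505 for SEC23A, 0.0773 for KLHL12 and 0.0755 for LOXL2.

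Of 9 collagen receptors 6 were tested, 3 rose, 1 fell and 2 did not pass, with a median log2 change of 1.44, or 0.37 with 2 genes at the limit that 3 reads allow. ITGB1, the integrin beta 1 chain shared by the collagen-binding integrins, rose from 80.7 ± 18.1 to 265 ± 45 TPM (log2 change 1.71, limma adjusted p = 0.00492). ITGB1 was not called in the authors' deposited table, at -0.14 (SE 0.06) and a mean of 1536 normalized counts. ITGA11, the alpha chain that pairs with it on type I collagen, rose from 3.43 ± 0.708 to 17.1 ± 0.697 TPM (log2 change 2.05, limma adjusted p = 0.014) and was 0.87 (SE 0.26) in the authors' deposited table. The wild-type values of ITGA11 rested on 4 to 7 reads per library. ITGA2 passed (limma adjusted p = 0.0379) on 0 or 1 read in the wild-type and 4 to 10 reads in the METTL3 KO libraries. DDR1, a collagen-binding receptor kinase, fell from 29.6 ± 2.89 to 17.0 ± 0.937 TPM (log2 change -0.76, limma adjusted p = 0.0406), and was at -0.12 with the GC trend removed (limma adjusted p = 0.754). DDR1 (0.08) was not called in the authors' deposited table, which called 1 of 7 receptors with an adjusted p higher and 0 lower. With METTL3 KO library 3 left out limma called 0 of the 6, with 5 at an unadjusted p under 0.05 and adjusted p of 0.0587 for ITGB1 and 0.0836 for ITGA11. Without wild-type library 1 or 2 the count was 2. DDR1 did not pass without any 1 of METTL3 KO library 3 or the wild-type libraries (limma adjusted p = 0.0534 to 0.113), nor ITGA2 without METTL3 KO library 2 or 3 or wild-type library 1 or 2 (0.0705 to 0.132).

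Of 15 regulators of collagen mRNA 14 were tested, 5 rose and 9 did not pass, with a median log2 change of 0.81. The share called is close to the 35.3% over all genes tested, where 22.9% were called higher. YBX1, which represses the COL1A2 promoter and also binds mRNA, rose from 215 ± 32.9 (SD, n = 3) to 974 ± 4.64 (SD, n = 2) TPM, a log2 change of 2.19 (limma adjusted p = 0.00136). YBX1 has near-identical processed copies in the genome, so its reads may have been split. SP1, a factor that binds GC boxes in collagen promoters, rose from 14.5 ± 3.28 to 64.3 ± 5.13 TPM (log2 change 2.10, limma adjusted p = 0.0042). CREB3L1, an activator of type I collagen genes, rose from 52.1 ± 10.8 to 107 ± 2.35 TPM (log2 change 1.05, limma adjusted p = 0.0144), or 0.72 with median ratio scaling (limma adjusted p = 0.0562). Without METTL3 KO library 3 the limma adjusted p was 0.0661 for SP1 and 0.129 for CREB3L1.

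SMAD3, which carries the TGF-beta signal to collagen promoters, rose from 25.2 ± 1.57 to 41.6 ± 1.75 TPM (log2 change 0.70, limma adjusted p = 0.0306), and was not past the threshold with median ratio scaling (limma adjusted p = 0.146), nor without any 1 of METTL3 KO library 3 or the wild-type libraries (0.0512 to 0.0955). LARP6, which binds a stem-loop of type I collagen mRNAs, had 33.7 and 30.5 TPM (log2 change -0.13, SE 0.24, limma adjusted p = 0.693), and was named after its value was seen. Of 14 regulators with an adjusted p in the authors' deposited table, those called were all higher: SMAD3 (0.88), IRF1 (0.76), LARP6 (0.69) and CREB3L1 (0.47), and the other 10 were not called. YBX1 (-0.12) and SP1 (0.32) were not called in the authors' deposited table. Only 2 regulators passed limma without METTL3 KO library 3.

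**Figure D5:**
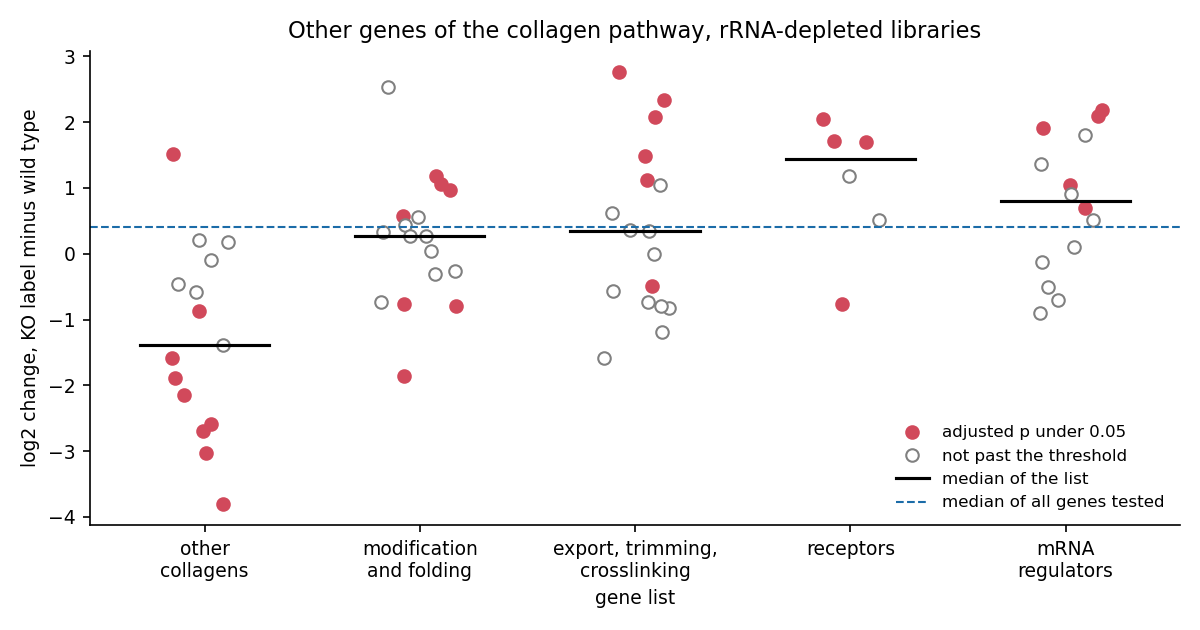
Log2 change (knockout label minus wild type) of each tested gene of 5 lists in the rRNA-depleted libraries, filled where the limma adjusted p was under 0.05, with the median of each list as a black bar and the median of all genes (0.41) as a dashed line. The other collagens have a median of -1.39, while the remaining lists have medians of 0.27 to 1.44.

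Many genes of other kinds followed the same profile. Over the 6 libraries, the mean log2(TPM + 1) of the 8 collagen genes had a Pearson r above 0.9 with 765 of 3192 other genes with a mean of at least 50 TPM, as a description over libraries that fall into the 2 genotypes. The closest 5 were RANGAP1 (r = 0.999), ENSG00000277048, RHOB, UQCC3 and SUN2. RANGAP1, which activates the GTPase of nuclear transport, had 1062 to 1137 TPM in the wild type and 225 to 243 TPM under the knockout label.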

How the data were processed

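RNA-seq was available for HMC3 cells, wild type or labelled METTL3 KO. Per the submitters' processing notes, Trimmomatic, STAR and DESeq2 were used with hg38; counting tool, annotation and strand setting are not given in the sources used here. For the rRNA-depleted libraries (3 and 3, 100 ng RNA per the labels' protocols) the authors deposited TPM. For the poly(A) libraries (5 and 5) they deposited 1 comparison. Its columns, per the file headers, are the mean normalized count (a signal pooled over libraries), log2 fold change and SE, a Wald statistic (a score) and p-values, copied here and not retested; the count test foreseen for them was not possible.

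Columns were matched by genotype and replicate number, and 0 columns were left unused. Reads were recovered as TPM times GENCODE 29 exon length (90.9% of values whole within 0.02 reads; 93.8% of genes matched). Limits of 3 reads cover counting error only. Genes reaching 1 TPM in 3 or more rRNA-depleted libraries were fitted as log2(TPM + 1) in limma 3.58.1 (R 4.3.3, eBayes with a trend), with Benjamini-Hochberg adjustment at 0.05. This scale understates changes of low genes. On simulated reads for this comparison, 200 genes were changed by 2 on the log2 scale at a mean of at least 50 reads. The step recovered 178 of them (13604 genes, 5 false calls). At that depth 0 of 200 changed by 1 were recovered (13647 genes). At a mean of at least 5 reads, 81 of 200 changed by 2 were recovered (13664 genes). When none changed, 0 of 13637 genes were called. The simulation held no trend with GC content and at most 200 changed genes. In the data 35.3% of genes were called, so recovery may differ there. The members, lists and alternatives were chosen with earlier results of these data known. Named genes are all members, the 4 most abundant called genes of each list, and the 5 closest profiles; others are marked as chosen later. Promoter sequence is from RefSeq (GRCh38.p14). Other steps used Python 3.11.15, numpy 2.4.6, pandas 2.3.3, scipy 1.17.1 and matplotlib 3.10.9.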

Additional observations from a re-analysis of the deposited data

How the results depend on the processing

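Over 16 alternatives the number of other collagens past the limma threshold was 6 to 11, against 9. Leaving out 1 library gave 1663 to 5185 genes in all against 5220, 6 to 9 other collagens, 2 to 7 of the modification list against 7, 1 to 6 of the export list against 6, 0 to 4 of the receptors against 4 and 2 to 7 of the regulators against 5. Leaving out METTL3 KO library 3 gave each of the lowest counts (for other collagens also wild-type library 2), since 1 sample with that label then remains and is taken to vary like the wild type. At an adjusted p of 0.01, 2242 genes passed, with 2 of the modification list, 3 of the export list, 1 receptor and 3 regulators, and 1811 genes, not 2782, and 2 of the modification list, not 4, in the authors' deposited table. With the 6 libraries as separate samples 11 modification genes and 8 regulators passed, with voom on recovered reads 11 export genes, and without a filter on low values 2 receptors. With the GC trend removed COL6A2 (0.26), P3H3 (0.0895) and LOXL2 (0.0222) turned direction; the cause was not tested. Of calls, 64.8% were higher, and 49.7% with median ratio scaling. Replicate numbers are shared between genotypes, but same-numbered libraries did not deviate together (correlations 0.020, -0.020 and 0.008). With the replicate block 8 regulators and 6037 genes passed.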
